A study of Mus musculus with 6 samples.

Results

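This is the comparison, across all genes of the deposited count table, of MC3T3-E1 Subclone 14 cells given dexamethasone together with vesicles from endothelial progenitor cells (EPC-EVs) with control cells given only PBS. It used 4 of the 6 RNA-seq libraries of the series, 2 for each side, chosen by their treatment labels. MC3T3-E1 is a mouse calvarial pre-osteoblast line, and Subclone 14 is a single clone of it, so all libraries share 1 genotype. The control cells received 100 µL PBS. The other side received 10 µM dexamethasone, a synthetic glucocorticoid, plus 100 µg EPC-EVs, which the study isolated from cultured mouse bone marrow progenitors. Both were kept for 72 h, as was the remaining group of 2 libraries given 10 µM dexamethasone alone, which is used below only beside the comparison. A separate text of the series speaks of fibroblasts, 2 groups and 48 h. The labels of the individual samples were followed here. Because dexamethasone and EPC-EVs were added together, their effects cannot be told apart within this comparison, and no library received EPC-EVs alone. Below, 'with EPC-EVs' and 'EPC-EVs libraries' are short for dexamethasone + EPC-EVs, the dexamethasone included.

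Glucocorticoids bind a nuclear receptor that switches on genes such as Tsc22d3 and Fkbp5 and dampens inflammatory genes driven by NF-kB and AP-1 factors. In bone, long exposure lowers the number and the output of osteoblasts, the cells that lay down type I collagen and mineralise it. Extracellular vesicles carry protein, lipid and RNA between cells and are taken up by endocytosis. Cells sense their own cholesterol through SREBP factors held in the endoplasmic reticulum, which reach the nucleus when sterols are scarce and switch on the enzymes that make cholesterol and fatty acids.

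The 4 libraries differed in more than treatment. The control libraries held 6126888 and 5146760 counts and the dexamethasone + EPC-EVs libraries 12864009 and 13182014. Transcripts encoded in mitochondrial DNA made up 7.46 and 8.62% of the control counts and 0.465 and 0.727% of the dexamethasone + EPC-EVs counts. Gm26917, an abundant noncoding RNA gene rich in GC, made up 0.606 and 0.252% against 5.88 and 6.69%. Levels are given in CPM, the count scaled to library size, with TMM factors over all 6 libraries. A count of 0 allowed a level of up to 0.493 and 0.601 CPM in the control libraries and 0.236 and 0.231 CPM in the dexamethasone + EPC-EVs libraries, taken as 3 counts and covering counting error only.

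Of 21686 genes in the table, 13511 had enough counts to test, and 4916 of them (36.4%) differed between dexamethasone + EPC-EVs and control. These were called with edgeR's quasi-likelihood test at an adjusted p under 0.05. They split into 2587 upregulated genes (19.1% of those tested) and 2329 downregulated genes (17.2%). The median log2 fold change over all tested genes was 0.02, and the central 90% of genes lay between -2.29 and 2.33. At the thresholds used by the study, p under 0.05 before adjustment with at least 1.5 log2 units of change either way, 2793 genes passed (20.7%), 1507 of them higher (11.2%) and 1286 lower (9.52%). In 9861 genes (73.0%) both libraries of one group lay above both of the other, so separation of the libraries alone says little about a gene. The plot of all genes tested shows that calls ran over the whole range of levels.

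**Figure D1:**
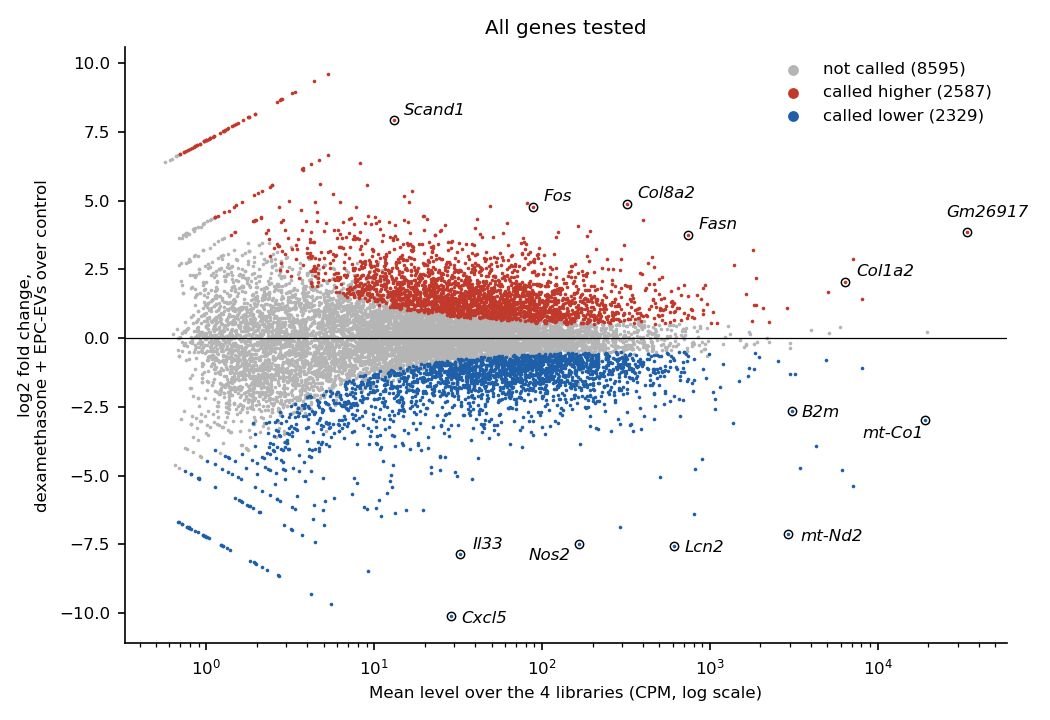
Each point is 1 of the 13511 genes tested, with its mean level over the 4 libraries (CPM, log scale) on the horizontal axis and its log2 fold change, dexamethasone + EPC-EVs over control, on the vertical axis. Red points are the 2587 genes called higher and blue points the 2329 called lower. Cxcl5, Il33, Lcn2, Nos2 and mt-Nd2 stand out at the bottom and Scand1 at the top. The diagonal strings of points at the left are genes with 0 counts in one group, whose plotted fold change is no bound.

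The direction of a call followed the base composition of the gene. Exonic GC content had a median of 54.9% among the upregulated genes and 43.3% among the downregulated genes, against 48.8% over all tested genes. Genes were split by GC content into 5 bins of equal size. The bin lowest in GC held 1.52% upregulated and 40.9% downregulated genes, with a median log2 fold change of -0.94. The bin highest in GC held 47.7% upregulated and 2.59% downregulated genes, with a median of 1.11. When every library was first freed of its own dependence on GC content and length (called below the trend), the tested genes held 1631 upregulated (12.1%) and 1937 downregulated (14.3%) calls. Of the original calls, 1154 of the upregulated genes (44.6%) and 1286 of the downregulated genes (55.2%) kept their call and direction, and 30 genes were called in opposite directions. Depth, mitochondrial share and this trend all ran with the treatment, so their part cannot be told apart from it. For this reason the count of each gene list is followed below by its count with the trend removed, which need not be of the same genes, and it stands beside the background of 19.1% higher and 17.2% lower over all tested genes.

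**Figure D2:**
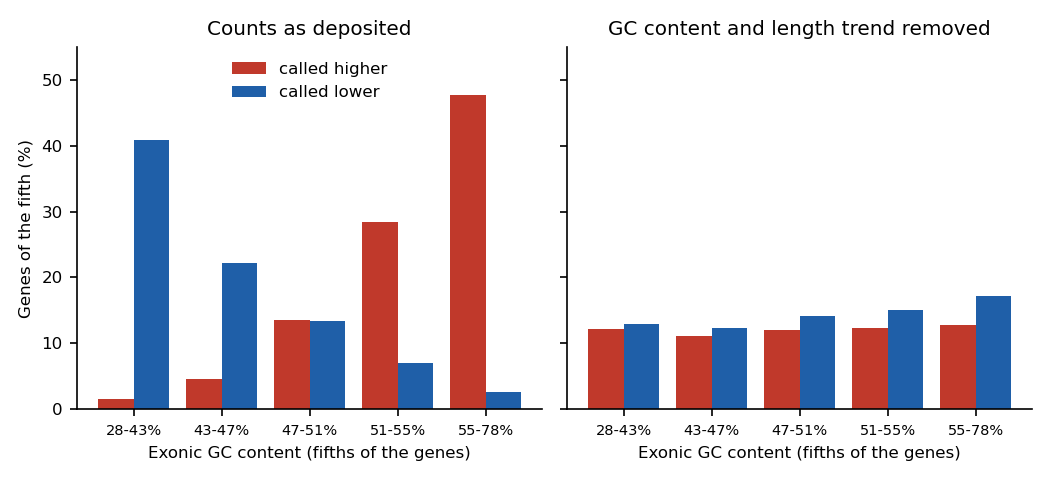
Genes were split into 5 equal bins by exonic GC content (horizontal axis, range of each bin), and bars give the percentage of each bin called higher (red) or lower (blue) in dexamethasone + EPC-EVs against control. With the counts as deposited, upregulated genes made up 1.52% of the lowest bin and 47.7% of the highest, and with the trend removed each bin held between 11 and 12.7% upregulated genes.

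Promoter sequences of genes from the cholesterol and inflammatory lists are shown first. RefSeq promoters (GRCm38.p6, from 250 bases before to 50 bases after the transcription start) were searched on both strands for the sterol regulatory element TCACNCCAC, through which SREBP factors act, and for the NF-kB motif GGGNNTTTCC. Among all 32851 promoters, 1.24% held the first motif and 1.63% the second. Of the 25 NF-kB list genes matched by symbol, 6 had a promoter with the NF-kB motif (28.1% of their promoters), and of 10 chemokine genes matched 4 did (40.0%). The NF-kB list was drawn up as genes of that pathway, so such matches are no finding of these data. Of the 20 cholesterol enzyme genes 15 were matched, and of these Hmgcs1 held a sterol regulatory element in this window. Shares are given next for the sterol element and then the NF-kB motif. Those among promoters of upregulated genes (1.24% and 1.58%) and of downregulated genes (1.21% and 2.27%) stood beside 1.13% and 1.73% of all tested genes. The AP-1 motif was in 5.33% of promoters of upregulated genes and 4.89% of downregulated genes, beside 5.28% of all tested genes. These matches are a description of letters, not of binding. Hmgcs1 is shown as the one matched cholesterol enzyme with this element, at chr13:119690101-119690400 (+ strand), with the motif in capitals. Il6, Ccl9 and Tnfaip3 are shown as downregulated genes with an NF-kB motif, at chr5:30012864-30013163 (+ strand), chr11:83578587-83578886 (- strand) and chr10:19015361-19015660 (- strand). Nfkbia, at chr12:55492598-55492897 (- strand), carries the same motif and was not called. Of the other NF-kB list genes with the motif, not printed here, Nfkb2 was called higher and Csf1 and Il1rn were not called. The other chemokines with it, Ccl20, Cxcl1 and Cxcl2, had too few counts to test. Capitals mark the motif on the gene's strand, which may hold its reverse complement.
Hmgcs1: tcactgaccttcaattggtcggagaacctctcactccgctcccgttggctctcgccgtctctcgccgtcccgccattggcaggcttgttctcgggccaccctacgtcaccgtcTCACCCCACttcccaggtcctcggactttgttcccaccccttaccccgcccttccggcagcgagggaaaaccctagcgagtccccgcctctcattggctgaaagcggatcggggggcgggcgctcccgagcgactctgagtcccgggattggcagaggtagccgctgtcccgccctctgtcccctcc
Il6: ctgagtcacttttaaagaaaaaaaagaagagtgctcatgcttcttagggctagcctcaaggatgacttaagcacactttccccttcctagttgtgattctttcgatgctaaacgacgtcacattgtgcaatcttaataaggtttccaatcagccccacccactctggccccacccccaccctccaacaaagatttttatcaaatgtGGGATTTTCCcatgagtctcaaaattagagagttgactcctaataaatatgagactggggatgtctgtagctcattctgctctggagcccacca
Ccl9: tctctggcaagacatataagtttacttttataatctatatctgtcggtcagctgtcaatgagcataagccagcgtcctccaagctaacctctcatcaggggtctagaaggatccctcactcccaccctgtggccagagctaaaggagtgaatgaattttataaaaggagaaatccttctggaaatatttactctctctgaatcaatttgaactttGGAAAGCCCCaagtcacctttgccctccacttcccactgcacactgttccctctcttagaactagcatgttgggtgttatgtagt
Tnfaip3: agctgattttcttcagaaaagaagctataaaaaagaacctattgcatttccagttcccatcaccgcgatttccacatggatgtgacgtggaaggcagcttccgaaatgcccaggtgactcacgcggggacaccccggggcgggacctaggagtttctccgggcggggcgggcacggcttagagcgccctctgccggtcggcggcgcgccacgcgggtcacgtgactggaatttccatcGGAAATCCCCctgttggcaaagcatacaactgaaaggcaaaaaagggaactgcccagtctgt
Nfkbia: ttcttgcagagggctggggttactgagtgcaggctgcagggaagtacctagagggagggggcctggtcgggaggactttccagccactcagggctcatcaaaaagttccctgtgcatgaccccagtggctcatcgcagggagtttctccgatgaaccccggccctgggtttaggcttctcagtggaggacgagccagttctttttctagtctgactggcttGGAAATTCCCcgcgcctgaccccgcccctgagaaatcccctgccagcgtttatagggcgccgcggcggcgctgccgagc
The motif began 137 bases before the start in Hmgcs1, 44 in Il6, 35 in Ccl9, 12 in Tnfaip3 and 29 in Nfkbia.

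The 12 largest rises among called genes that averaged 10 CPM or more and did not overlap between the groups reached from a log2 fold change of 4.33 to 7.95, and all stayed called with the trend removed. Scand1, at chr2:156311847-156312704 (GRCm38, as all positions), had 0 and 1 counts in the control libraries and 321 and 349 with EPC-EVs, a ratio of 289 with a 95% counting interval of 51.7 to 11427. Fdps, at chr3:89093588-89101959, makes the farnesyl diphosphate used for cholesterol and for protein prenylation, and had 1.48 and 0 CPM in control and 25.1 and 33.5 CPM with EPC-EVs (log2 fold change 5.17 ± 0.76, adjusted p = 0.0016). The AP-1 subunits Fos (5.42 and 7.01 CPM in control and 163 and 177 CPM with EPC-EVs; log2 fold change 4.76 ± 0.26, adjusted p = 7.1e-05) and Fosb (6.57 and 3.6 CPM in control and 121 and 193 CPM with EPC-EVs; log2 fold change 4.91 ± 0.37, adjusted p = 0.00017) were in this group. Col8a2, a chain of the short-chain collagen VIII, rose from 22.3 and 19.2 to 645 and 602 CPM (log2 fold change 4.88 ± 0.21, adjusted p = 3.2e-05).

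The other rises of this size were in genes of mixed function. Ap5b1, a subunit of the AP-5 adaptor complex, had 1.48 and 0 CPM in control and 38.3 and 27.7 CPM with EPC-EVs (log2 fold change 5.34 ± 0.75). Klf16, a Krüppel-like transcription factor, had 1.48 and 0.4 CPM in control and 31.3 and 31.1 CPM with EPC-EVs (4.96 ± 0.53). Adra1d, the alpha-1D adrenergic receptor, had 3.61 and 3 CPM in control and 107 and 83.3 CPM with EPC-EVs (4.81 ± 0.31). Tspo, a cholesterol-binding protein of the outer mitochondrial membrane, had 3.29 and 0 CPM in control and 40.2 and 36.2 CPM with EPC-EVs (4.43 ± 0.79), Spr, which completes tetrahydrobiopterin synthesis, had 1.81 and 1.6 CPM in control and 36 and 39.2 CPM with EPC-EVs (4.43 ± 0.39), and Aoc3, a cell-surface amine oxidase, had 3.29 and 0.4 CPM in control and 47.8 and 31.4 CPM with EPC-EVs (4.33 ± 0.64). The antisense gene Gm6277 had 0.986 and 0.801 CPM in control and 10.8 and 28.1 CPM with EPC-EVs (4.4 ± 0.67), with a wide gap between its EPC-EVs libraries. Scand1, Fdps, Adra1d, Tspo, Aoc3 and Gm6277 lie over another annotated gene, and whether the counting used strand is not given in the sources used here, so reads of the neighbour may be part of their counts.

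The 12 largest falls reached from a log2 fold change of -6.17 to -10.11, and the first 4 were inflammatory genes. Cxcl5, at chr5:90759360-90761624, encodes a chemokine that draws neutrophils. It had 303 and 324 counts in the control libraries and 1 and 0 with EPC-EVs, a ratio of 1454 with a 95% counting interval of 260 to 57528. Il33, an alarmin cytokine at chr19:29925114-29960718, had 63.6 and 65.1 CPM in control and 0.314 and 0.231 CPM with EPC-EVs (log2 fold change -7.83 ± 0.40, adjusted p = 6.8e-05). Lcn2, at chr2:32384633-32388252, encodes lipocalin-2, which binds bacterial siderophores, and fell from 1213 and 1219.7 to 4.32 and 8.87 CPM (log2 fold change -7.54 ± 0.36, adjusted p = 5.8e-05). Nos2, the inducible nitric oxide synthase at chr11:78920787-78960254, fell from 426 and 231 to 1.41 and 2.31 CPM (log2 fold change -7.47 ± 0.42, adjusted p = 7.1e-05). The falls were chosen under the same conditions as the rises, so separation of their libraries was fixed by the choice.

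The rest of the 12 were mitochondrial, repeated or little-known genes. The mitochondrially encoded complex I genes mt-Nd2 (5330.1 and 6284 CPM in control and 25.1 and 58.4 CPM with EPC-EVs; -7.14 ± 0.44) and mt-Nd6 (1218 and 1958 CPM in control and 14.8 and 23.9 CPM with EPC-EVs; -6.38 ± 0.36) fell together. Gm28439, annotated on chromosome 1 as an unprocessed pseudogene, had 538 and 611 CPM in control and 4 and 5.86 CPM with EPC-EVs (-6.88 ± 0.27). Klra2, of the Ly49 receptor family, had 25.8 and 17.4 CPM in control and 0.0785 and 0.386 CPM with EPC-EVs (-6.47 ± 0.69), and Cetn4, a centrin, had 16.8 and 23.8 CPM in control and 0.393 and 0.154 CPM with EPC-EVs (-6.17 ± 0.63). Gm10800 (-6.23 ± 0.58), Gm14305 (-6.36 ± 0.58) and Gm13230 (-6.26 ± 0.60) lay at 23.2 to 48.1 CPM in control and under 1 CPM with EPC-EVs. Members of repeated families and Gm28439 can share reads with close copies, and mt-Nd2, mt-Nd6, Gm28439, Gm14305, Gm13230 and Cetn4 lie over another annotated gene, so their separate values are uncertain. All 12 falls stayed called with the trend removed.

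Cholesterol synthesis enzymes were called in 1 direction. All 20 enzymes from acetyl-CoA to cholesterol were upregulated, with a median log2 fold change of 2.72 against 0.02 over all genes, and all 20 stayed called with the trend removed (median 2.63). Summed over the list, the control libraries held 589.7 and 584 CPM and the dexamethasone + EPC-EVs libraries 3375 and 3384 CPM. Hmgcs1, which condenses the first 6-carbon unit, had 60.9 and 91.5 CPM in control and 240.2 and 250.2 CPM with EPC-EVs (log2 fold change 1.67 ± 0.23, adjusted p = 0.0013).

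Enzymes of the later steps rose as well. Mvk, mevalonate kinase, had 11.3 and 1 CPM in control and 139 and 95.3 CPM with EPC-EVs (log2 fold change 4.17 ± 0.67, adjusted p = 0.0023), and its control libraries were far apart. Mvd, the decarboxylase of the same branch, had 7.88 and 3.2 CPM in control and 77.9 and 80.8 CPM with EPC-EVs (3.79 ± 0.39). The isomerase gene Idi1 had 15.3 and 7.21 CPM in control and 45.9 and 33.5 CPM with EPC-EVs (1.79 ± 0.39). These are the steps that lead to the isoprenoid units joined by Fdps. Among the sterol-forming steps, Sqle, squalene epoxidase, had 64.4 and 41.4 CPM in control and 286 and 303 CPM with EPC-EVs (2.46 ± 0.24), and Lss, which closes the sterol ring, had 11.3 and 20.2 CPM in control and 230.1 and 235 CPM with EPC-EVs (3.87 ± 0.29). Cyp51, the lanosterol demethylase, had 66.9 and 49.1 CPM in control and 416 and 448 CPM with EPC-EVs (2.88 ± 0.22), Nsdhl had 20.0 and 21.6 CPM in control and 112 and 111 CPM with EPC-EVs (2.4 ± 0.22) and Sc5d had 52.2 and 72.5 CPM in control and 172 and 178 CPM with EPC-EVs (1.47 ± 0.22). In all 20 enzymes both EPC-EVs libraries were above both control libraries, as in 38.2% of all tested genes, and the plot of cholesterol enzyme levels shows 18 of them.

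**Figure D3:**
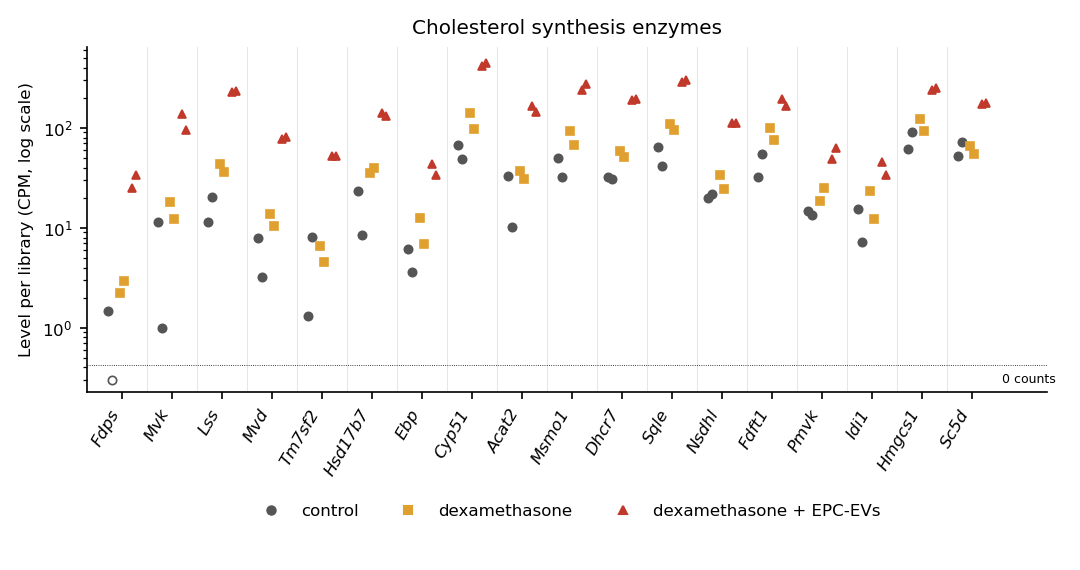
Level of 18 of the 20 cholesterol synthesis enzymes (CPM, log scale) in every library, ordered by log2 fold change. Circles are control, squares dexamethasone and triangles dexamethasone + EPC-EVs libraries, and an open symbol marks a library with 0 counts. In all 18 genes the triangles lie above the circles, from Fdps (25.1 and 33.5 against 1.48 and 0 CPM) to Sc5d (172 and 178 against 52.2 and 72.5 CPM).

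Among 16 tested genes of sterol regulation and uptake, 8 rose and 1 fell (6 and 0 with the trend removed). Srebf2, the master factor of cholesterol synthesis, had 72 and 35.4 CPM in control and 595 and 533 CPM with EPC-EVs (log2 fold change 3.37 ± 0.32, adjusted p = 0.00033), and it overlaps the annotated Mir33. Insig1, which retains SREBP factors in the endoplasmic reticulum, had 29.4 and 15.8 CPM in control and 97.5 and 119.8 CPM with EPC-EVs (2.24 ± 0.31), and Stard4, a cytosolic sterol carrier, had 18.9 and 15.8 CPM in control and 145 and 149 CPM with EPC-EVs (3.06 ± 0.22). Soat1, which esterifies cholesterol for storage, had 213 and 208 CPM in control and 129 and 117 CPM with EPC-EVs and was the one gene that fell (-0.79 ± 0.18), a call lost with the trend removed. Abca1, the main cholesterol exporter and a target of LXR receptors, had 3.61 and 1 CPM in control and 2.75 and 1.39 CPM with EPC-EVs (log2 fold change -0.19 ± 0.98, adjusted p = 0.9) and was not called.

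Fatty acid synthesis and desaturation genes followed, with 11 of 13 tested genes upregulated, none downregulated and a median log2 fold change of 1.73. With the trend removed 11 were upregulated, 10 of them with and without it. Fasn, fatty acid synthase, rose from 127 and 74.5 to 1329.5 and 1422 CPM (log2 fold change 3.75 ± 0.27, adjusted p = 0.00014). Scd2, a stearoyl-CoA desaturase, rose from 414 and 278 to 3271 and 3236 CPM (log2 fold change 3.21 ± 0.23, adjusted p = 0.00014). The enzymes that supply and activate acetyl units rose as well, with log2 fold changes of 2.94 ± 0.21 for Acly, 2.96 ± 0.24 for Acss2 and 1.71 ± 0.18 for Acaca. Srebf1, the factor that mainly drives this branch, had 12.6 and 13.6 CPM in control and 60.8 and 56.1 CPM with EPC-EVs (2.13 ± 0.26). The desaturases Fads1 and Fads2 of polyunsaturated fatty acids rose by 1.88 ± 0.19 and 2.4 ± 0.20. Elovl5 (43.7 and 77.7 CPM in control and 79.2 and 75.2 CPM with EPC-EVs) and Me1 (116 and 115 CPM in control and 134 and 213 CPM with EPC-EVs) were the tested members not called, although Me1 was called higher with the trend removed (0.86).

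Calls among inflammatory genes were mostly downward. In the NF-kB list, 12 of 25 tested genes fell and 1 rose, while 12 were not called (median -1.21), and with the trend removed 15 fell and none rose. Beside Lcn2, Nos2 and Il33, the cytokine gene Il6 had 18.9 and 11.8 CPM in control and 0.785 and 0 CPM with EPC-EVs (log2 fold change -5.27 ± 0.99, adjusted p = 0.0044). Saa3, a serum amyloid protein, had 94 and 64.1 CPM in control and 1.81 and 5.94 CPM with EPC-EVs (-4.36 ± 0.51), and complement C3 had 1173 and 1150.2 CPM in control and 109 and 224 CPM with EPC-EVs (-2.82 ± 0.32). Vcam1, an adhesion molecule for leukocytes, had 434 and 595 CPM in control and 151 and 111 CPM with EPC-EVs (-2.0 ± 0.23), and Mmp13, a collagenase of bone and cartilage, had 124 and 171 CPM in control and 27.3 and 10.0 CPM with EPC-EVs (-3.0 ± 0.43). All of these, named from the falls of the list, were lower in both EPC-EVs libraries than in both control libraries. Over the list, 14 of 25 tested genes lay lower in this way and 5 higher, beside 34.8% and 38.2% of all tested genes.

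Subunits and inhibitors of NF-kB followed no single direction. Nfkb1 had 169 and 121 CPM in control and 163 and 176 CPM with EPC-EVs (log2 fold change 0.21 ± 0.21, adjusted p = 0.47) and was not called. Nfkb2 was the one gene of the list that rose, with 49.4 and 38.6 CPM in control and 119 and 129 CPM with EPC-EVs (log2 fold change 1.47 ± 0.22, adjusted p = 0.0016), a call lost with the trend removed. Nfkbia, the inhibitor that holds NF-kB in the cytoplasm, had 54.2 and 53.7 CPM in control and 48.6 and 62.1 CPM with EPC-EVs (log2 fold change 0.02 ± 0.23, adjusted p = 0.96). Tnfaip3, a deubiquitinase that ends NF-kB signals, fell with 86.6 and 104 CPM in control and 36.5 and 46.9 CPM with EPC-EVs (log2 fold change -1.21 ± 0.24, adjusted p = 0.0051). Nfkbia and Tnfaip3 are feedback genes of the same pathway, both with the motif printed above, and of these Tnfaip3 was called. Csf1, the macrophage growth factor that osteoblasts also supply to osteoclast precursors, had 686 and 674 CPM in control and 995 and 843 CPM with EPC-EVs (log2 fold change 0.42 ± 0.17, adjusted p = 0.091). Ptgs2, cyclooxygenase-2, had 195 and 182 CPM in control and 131 and 89.1 CPM with EPC-EVs (log2 fold change -0.80 ± 0.22, adjusted p = 0.023) and was not called with the trend removed.

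Of 8 tested chemokine genes 5 fell and none rose, with a median log2 fold change of -1.48 (6 fell with the trend removed). After Cxcl5, the deepest falls were in Cxcl10, an interferon-induced chemokine for T cells, with 40.9 and 54.5 CPM in control and 2.83 and 5.94 CPM with EPC-EVs (log2 fold change -3.46 ± 0.42, adjusted p = 0.00076), and Ccl9, with 19.2 and 19.6 CPM in control and 3.22 and 3.93 CPM with EPC-EVs (log2 fold change -2.45 ± 0.42, adjusted p = 0.0028). Cxcl12, which holds blood stem cells in the marrow, had 411 and 399 CPM in control and 158 and 106 CPM with EPC-EVs (log2 fold change -1.64 ± 0.22, adjusted p = 0.0012), and Ccl5 had a log2 fold change of -1.32 ± 0.43. Ccl2, which recruits monocytes, did not separate: it had 33 and 45.2 CPM in control and 14.3 and 53.3 CPM with EPC-EVs, with EPC-EVs libraries on both sides of the control libraries (log2 fold change -0.23 ± 0.53, adjusted p = 0.77). Cxcl1 and Cxcl2 were at 6 counts or fewer in every one of the 4 libraries and were not tested.

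**Figure D4:**
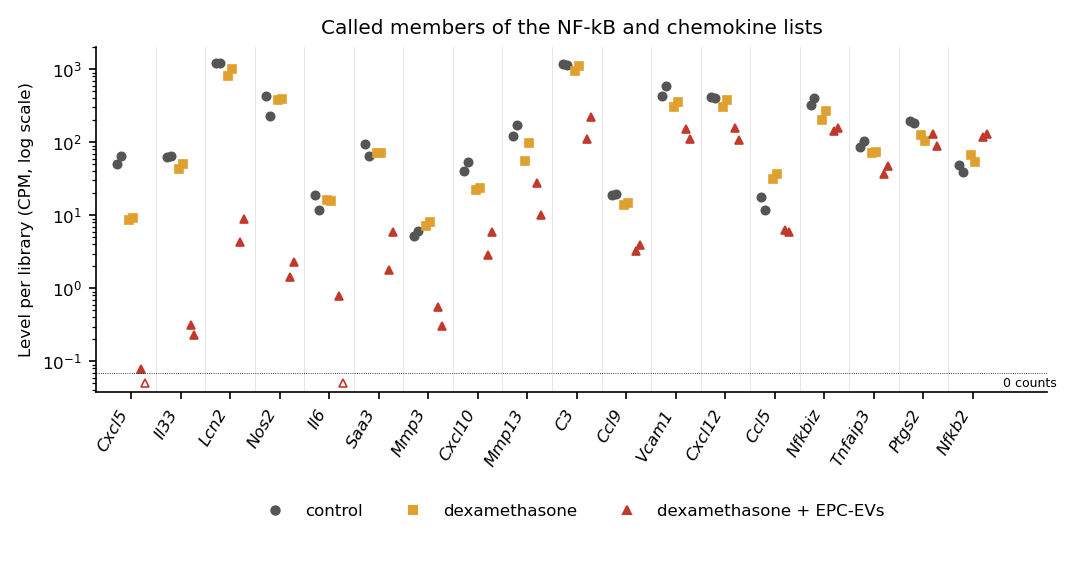
Level (CPM, log scale) in every library of the called members of the NF-kB and chemokine lists, ordered by log2 fold change. Circles are control, squares dexamethasone and triangles dexamethasone + EPC-EVs libraries, and open symbols at the foot mark 0 counts. Cxcl5, Il33, Lcn2 and Nos2 show the widest gaps, and Nfkb2 at the right is the one gene in which the triangles lie above the circles.

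Interferon-stimulated genes were mixed, with 5 of 28 higher and 7 lower (4 and 5 with the trend removed) and a median of -0.16, shares of 17.9% and 25% beside the background of 19.1% and 17.2%. The guanylate-binding and immunity-related GTPase genes Gbp7 (26.3 and 30.4 CPM in control and 6.59 and 6.79 CPM with EPC-EVs; -2.1 ± 0.34) and Iigp1 (66.9 and 79.3 CPM in control and 11.1 and 13.7 CPM with EPC-EVs; -2.58 ± 0.27) fell, while Ifi35 (10.5 and 4.81 CPM in control and 47.2 and 34.9 CPM with EPC-EVs; 2.39 ± 0.41) and Oas1a (4.27 and 4 CPM in control and 13.3 and 12.3 CPM with EPC-EVs; 1.61 ± 0.46, not called with the trend removed) rose. Isg15, a ubiquitin-like protein induced by interferon, had a log2 fold change of -0.06 ± 0.34 and was not called. In antigen presentation, 5 of 15 rose and 2 fell (1 and 4 with the trend removed). B2m, the invariant chain of MHC class I, fell from 4171 and 6373 to 839 and 875 CPM (log2 fold change -2.64 ± 0.24, adjusted p = 0.00031). Tapbp, which loads peptide onto class I, had 156 and 104 CPM in control and 735 and 854 CPM with EPC-EVs (log2 fold change 2.59 ± 0.23, adjusted p = 0.0003), although it overlaps Zbtb22 on the same strand, and Psmb10 (2.28 ± 0.58) and Psme1 (-0.95 ± 0.23) were also called in opposite directions, the former not with the trend removed.

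Immediate early genes are transcribed within minutes of a stimulus and encode, among others, the Fos and Jun subunits of AP-1. Of 29 tested, 13 rose and 7 fell (8 and 9 with the trend removed). Beside Fos and Fosb, Junb had 32.5 and 18 CPM in control and 173 and 172 CPM with EPC-EVs (log2 fold change 2.74 ± 0.29, adjusted p = 0.00046), Ier2 had 21.4 and 13 CPM in control and 239 and 207 CPM with EPC-EVs (log2 fold change 3.67 ± 0.27, adjusted p = 0.00016), and the mRNA-destabilising factor Zfp36 and the transcription factor Klf2 rose by 2.61 ± 0.26 and 3.53 ± 0.66. Jun and Fosl1, other AP-1 subunits, fell. Jun fell from 786 and 633 to 261 and 266 CPM (log2 fold change -1.45 ± 0.18, adjusted p = 0.00087), and Fosl1, the Fra-1 subunit, had 321 and 139 CPM in control and 39 and 28.5 CPM with EPC-EVs (log2 fold change -2.78 ± 0.38, adjusted p = 0.0012). Atf3, a stress-induced member of the same family, had 4.93 and 10.8 CPM in control and 0.785 and 0.694 CPM with EPC-EVs (-3.41 ± 0.79), Myc fell (-1.1 ± 0.24), Klf6 (-1.62 ± 0.18), and Egr1, a factor usually induced with Fos, had 345 and 376 CPM in control and 317 and 244 CPM with EPC-EVs (log2 fold change -0.38 ± 0.19, adjusted p = 0.15) and was not called. Egr1 was called lower once the trend was removed (-1.5, adjusted p = 0.0013).

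Known glucocorticoid receptor targets were called in both directions, with 5 of 23 higher and 6 lower (2 and 8 with the trend removed), or 21.7% and 26.1% beside 19.1% and 17.2% over all tested genes. Tsc22d3, which encodes GILZ and is among the most direct targets, had 36.1 and 24.8 CPM in control and 93.5 and 214 CPM with EPC-EVs (log2 fold change 2.31 ± 0.39, adjusted p = 0.0029). Fkbp5, a chaperone that dampens the receptor, had 19.1 and 24 CPM in control and 47 and 40.9 CPM with EPC-EVs (log2 fold change 1.01 ± 0.27, adjusted p = 0.021), and Dusp1, a MAP kinase phosphatase, rose by 1.77 ± 0.24, while Cebpb rose by 2.58 ± 0.23 and Ddit4 by 1.75 ± 0.28. Fkbp5, Cebpb and Ddit4 were not called with the trend removed. Sgk1 had 234 and 147 CPM in control and 232 and 315 CPM with EPC-EVs (log2 fold change 0.50 ± 0.26, adjusted p = 0.16) and was not called, and Zbtb16 was at 6 counts or fewer in each of the 4 libraries. Mt1, a metallothionein inducible by glucocorticoids and by zinc, fell from 5323 and 1958 to 668 and 937 counts (log2 fold change -3.36 ± 0.37, adjusted p = 0.00058), while Mt2 had 178 and 55.1 CPM in control and 39.1 and 63.6 CPM with EPC-EVs (log2 fold change -1.2 ± 0.48, adjusted p = 0.081) and was called lower with the trend removed (-1.82). The receptor gene itself, Nr3c1, had 192 and 254 CPM in control and 159 and 135 CPM with EPC-EVs (log2 fold change -0.62 ± 0.21, adjusted p = 0.046), a fall that turned to a log2 fold change of 0.13 with the trend removed. Errfi1 (-0.85 ± 0.21), Glul (-0.61 ± 0.20) and Cdkn1a (-1.69 ± 0.24) were among those that fell.

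Ferroptosis is an iron-dependent cell death driven by peroxidised membrane lipids, held back by glutathione and the peroxidase Gpx4. Of the 18 genes of that pathway which the study names, and which it chose on these samples, 17 were tested, 5 rose and 4 fell. With the trend removed 3 rose and 3 fell. Gpx4 had 31.5 and 12.4 CPM in control and 179 and 157 CPM with EPC-EVs (log2 fold change 2.9 ± 0.38, adjusted p = 0.00098). Lpcat3, which places polyunsaturated fatty acids into membrane phospholipids, had 28.4 and 14.8 CPM in control and 126 and 115 CPM with EPC-EVs (log2 fold change 2.45 ± 0.31, adjusted p = 0.00089), whereas Acsl1, which activates fatty acids, fell with 50.8 and 62.7 CPM in control and 32.5 and 26.3 CPM with EPC-EVs (log2 fold change -0.97 ± 0.26, adjusted p = 0.019). Called genes thus included both a protective enzyme and enzymes that supply the lipid substrate.

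The cystine carrier that feeds glutathione has 2 subunits. Slc3a2 rose with 155 and 140.1 CPM in control and 243 and 339 CPM with EPC-EVs (log2 fold change 0.96 ± 0.21, adjusted p = 0.0092), and Slc7a11 had 11.2 and 6.01 CPM in control and 2.28 and 7.25 CPM with EPC-EVs with overlapping libraries (log2 fold change -0.87 ± 0.67, adjusted p = 0.34). Among iron genes, Fth1, the ferritin heavy chain, fell from 4045 and 4479 to 1734 and 1731 CPM (log2 fold change -1.32 ± 0.18, adjusted p = 0.0011). Cp, the ferroxidase ceruloplasmin, fell from 1106 and 1173 to 236 and 246 CPM (log2 fold change -2.26 ± 0.17, adjusted p = 0.00017). The iron importer Slc11a2 fell with 128 and 185 CPM in control and 83.7 and 94.3 CPM with EPC-EVs (-0.83 ± 0.23), and Pcbp2, an iron chaperone, rose with 247 and 180.0 CPM in control and 406 and 406 CPM with EPC-EVs (0.91 ± 0.20). The remaining iron genes were not called: Tfrc had 14.9 and 11.6 CPM in control and 13.4 and 13.7 CPM with EPC-EVs, Slc40a1 0.164 and 0.801 CPM in control and 1.96 and 1.31 CPM with EPC-EVs, Steap3 30.6 and 12.4 CPM in control and 41.8 and 27.5 CPM with EPC-EVs, Prnp 193 and 150.4 CPM in control and 154 and 163 CPM with EPC-EVs and Hmox1 94.9 and 56.5 CPM in control and 112 and 68.6 CPM with EPC-EVs. Among the autophagy members, Map1lc3a rose with 3.61 and 3.8 CPM in control and 14.3 and 12.2 CPM with EPC-EVs (1.81 ± 0.46), and Atg5 had 11 and 17.2 CPM in control and 16.2 and 15.1 CPM with EPC-EVs. Trp53 had 119.6 and 75.5 CPM in control and 103 and 101 CPM with EPC-EVs, and Slc39a8 was at 0 counts in all 4 libraries. Acsl1, Slc3a2 and Map1lc3a lost their calls with the trend removed.

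In the antioxidant list of NRF2 targets, 5 of 25 rose and 4 fell (4 and 4 with the trend removed, of which 2 and 4 were called so with and without it). These shares of 20.0% and 16.0% were near the 19.1% and 17.2% of all tested genes. Nfe2l2, which encodes NRF2, fell from 372 and 369 to 112 and 118 CPM (log2 fold change -1.71 ± 0.18, adjusted p = 0.00043), and Keap1, its inhibitor, had 17.9 and 18 CPM in control and 60.3 and 62.8 CPM with EPC-EVs (1.76 ± 0.25, and 0.56 without a call with the trend removed). Catalase (Cat) fell with 98.7 and 156 CPM in control and 48.1 and 37.4 CPM with EPC-EVs (-1.59 ± 0.27), Pgd of the pentose phosphate pathway rose with 57.7 and 34.4 CPM in control and 126 and 130.1 CPM with EPC-EVs (1.45 ± 0.26), and the classical targets Nqo1 (0.09 ± 0.33) and Gclc (0.17 ± 0.27) were not called. In the ATF4 list of amino acid response genes, 9 of 25 rose and 3 fell (7 and 5 with the trend removed). Atf4 had 60.1 and 49.3 CPM in control and 189.9 and 254 CPM with EPC-EVs (log2 fold change 2.0 ± 0.23, adjusted p = 0.00062), Slc1a5, a glutamine carrier, had 9.2 and 5.41 CPM in control and 90.4 and 99.6 CPM with EPC-EVs (log2 fold change 3.67 ± 0.31, adjusted p = 0.00025), Atf5 rose by 3.45 ± 0.41, and the serine synthesis gene Phgdh rose by 2.4 ± 0.31. Ddit3, which encodes CHOP, fell with 90.7 and 107 CPM in control and 44.1 and 36.1 CPM with EPC-EVs (-1.32 ± 0.23), Vldlr fell (-1.92 ± 0.30), and Asns had a log2 fold change of 0.25 ± 0.23 without a call.

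Of 20 endoplasmic reticulum chaperones 7 fell, 2 rose and 11 were not called, the median being -0.05 (6 fell and 2 rose with the trend removed). Hsp90b1 fell from 1618 and 1949 to 385 and 666 CPM (log2 fold change -1.78 ± 0.27, adjusted p = 0.0018), Dnajb9 fell (-1.93 ± 0.28), Calr (-0.95 ± 0.17) and Pdia3 (-1.06 ± 0.18). Herpud1 (1.62 ± 0.29) and Pdia6 (0.86 ± 0.19) rose, and Hspa5, the central chaperone BiP, had 481 and 556 CPM in control and 333 and 456 CPM with EPC-EVs (log2 fold change -0.41 ± 0.21, adjusted p = 0.15). Of 15 heat shock genes 8 rose and 5 fell (6 and 4 with the trend removed). Hspb1 had 0 counts in both control libraries and 32 and 53 with EPC-EVs, at least 12.2-fold higher against a floor of 3 counts over the control group. Hspb8 rose with 22 and 17.6 CPM in control and 165 and 173 CPM with EPC-EVs (3.07 ± 0.22) and Hspa8 with 146 and 144 CPM in control and 412 and 383 CPM with EPC-EVs (1.44 ± 0.17), whereas Hsp90aa1 fell from 773 and 923 to 231 and 226 CPM (log2 fold change -1.91 ± 0.18, adjusted p = 0.00034) and Hspe1 fell (-1.36 ± 0.24).

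Osteoblast transcription factors gave 4 rises and 2 falls among 15 tested genes (2 and 4 with the trend removed). Runx2, which commits cells to the osteoblast lineage, had 204 and 181 CPM in control and 188 and 179 CPM with EPC-EVs (log2 fold change -0.09 ± 0.18, adjusted p = 0.73). The groups overlapped. Sp7 (osterix), which acts after Runx2, had 4.27 and 1.2 CPM in control and 20.4 and 3.55 CPM with EPC-EVs (log2 fold change 2.08 ± 0.89, adjusted p = 0.1), and Dlx5 had 51.3 and 50.1 CPM in control and 56.5 and 67.7 CPM with EPC-EVs (log2 fold change 0.28 ± 0.22, adjusted p = 0.36). Alx4 rose with 26 and 9.01 CPM in control and 114 and 112 CPM with EPC-EVs (2.66 ± 0.41) and Twist2 with 0.821 and 0.2 CPM in control and 4.71 and 3.86 CPM with EPC-EVs (2.97 ± 1.0), while Prrx1, a factor of mesenchymal progenitors, fell from 2192 and 2772 to 1219.8 and 1119 CPM (log2 fold change -1.11 ± 0.19, adjusted p = 0.0031) and Tcf7 fell (-2.56 ± 0.76). Twist2 was not called with the trend removed.

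Among matrix and mineralisation genes, 6 of 16 rose and 3 fell (4 and 2 with the trend removed). Col1a2, the second chain of type I collagen, rose from 2322 and 2618 to 11561 and 9188 CPM (log2 fold change 2.05 ± 0.21, adjusted p = 0.00041). Col1a1 rose from 2224 and 2540.1 to 8694 and 6793 CPM (log2 fold change 1.68 ± 0.20, adjusted p = 0.00077), but was not called with the trend removed (log2 fold change 0.40, adjusted p = 0.22). Smpd3, a sphingomyelinase needed for mineralisation, had 1.81 and 0.2 CPM in control and 10.7 and 20.3 CPM with EPC-EVs (3.85 ± 0.78). Spp1, which encodes osteopontin, fell from 10336 and 11379.9 to 6051 and 4328 CPM (log2 fold change -1.09 ± 0.22, adjusted p = 0.0058, not called with the trend removed). Mgp, an inhibitor of calcification, had 443 and 503 CPM in control and 276 and 143 CPM with EPC-EVs (-1.2 ± 0.29), and Phex, a regulator of phosphate, had 27.1 and 27.8 CPM in control and 8.09 and 3.47 CPM with EPC-EVs (-2.27 ± 0.45, not called with the trend removed). Alpl, the alkaline phosphatase of mature osteoblasts, was scarce at 1.81 and 3.2 CPM in control and 1.33 and 0.463 CPM with EPC-EVs, and Bglap (1.48 and 2.8 CPM in control and 6.52 and 0.617 CPM with EPC-EVs) and Ibsp (0.329 and 2.4 CPM in control and 2.04 and 0.463 CPM with EPC-EVs) were likewise scarce. None of these was called, and the EPC-EVs libraries of Bglap, at 83 and 8 counts, were far apart.

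Signals from osteoblasts gave 2 rises and 4 falls among 15 tested (2 and 3 with the trend removed). Tnfrsf11b, the decoy receptor osteoprotegerin that restrains osteoclasts, fell with 114 and 85.1 CPM in control and 35.7 and 33.9 CPM with EPC-EVs (log2 fold change -1.54 ± 0.23, adjusted p = 0.0017). Igf1, a growth factor for osteoblasts, rose with 49.1 and 60.7 CPM in control and 209 and 176 CPM with EPC-EVs (log2 fold change 1.79 ± 0.21, adjusted p = 0.00073), and Igf1r had a log2 fold change of -0.10 ± 0.17 without a call. Il1rl1, the receptor for IL-33, fell from 435 and 350.4 to 82.8 and 69.7 CPM (log2 fold change -2.38 ± 0.20, adjusted p = 0.00025), so the calls for ligand and receptor were both downward. Igfbp6 rose by 1.18 ± 0.29, a direction that turned with the trend removed (-0.23).

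Of 19 collagen genes 14 rose and none fell, with a median log2 fold change of 1.03. With the trend removed the list split, with 7 higher and 4 lower and a median of 0.33, and its tested members had a median GC content of 56.4%. Col4a1 and Col4a2, the basement membrane pair, rose by 1.92 ± 0.20 and 2.21 ± 0.19, and their starts overlap on opposite strands. Col3a1 rose from 782 and 614 to 1581 and 1183 CPM (log2 fold change 0.97 ± 0.21, adjusted p = 0.0082, not called with the trend removed). Of 19 folding and crosslinking genes 10 rose and 2 fell (5 and 4 with the trend removed). The endoplasmic reticulum foldase Fkbp10 (78.8 and 39.2 CPM in control and 298 and 324 CPM with EPC-EVs; 2.38 ± 0.31) and the lysyl hydroxylase Plod3 (57.8 and 45.4 CPM in control and 205 and 287 CPM with EPC-EVs; 2.23 ± 0.24) rose, while the prolyl hydroxylase subunits P4ha1 (-1.06 ± 0.17) and P4ha2 (-1.5 ± 0.20) fell. Lox, which starts crosslinking, had a log2 fold change of 0.09 ± 0.19 and was not called.

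Matrix metalloproteinases and inhibitors gave 9 falls and 3 rises among 17 tested genes, with 5 not called (8 and 2 with the trend removed). The secreted proteases Mmp3 (5.26 and 6.01 CPM in control and 0.55 and 0.309 CPM with EPC-EVs; -3.69 ± 0.92) and Mmp13 fell, as did the aggrecanase Adamts5 (-1.6 ± 0.26). Timp1, an inhibitor of such proteases, also fell (-1.34 ± 0.24). Mmp14, a membrane-bound collagenase, rose from 312 and 252 to 949.8 and 1069 CPM (log2 fold change 1.82 ± 0.19, adjusted p = 0.00044), and Mmp2, which Mmp14 activates, rose from 461 and 489.7 to 1378 and 1215 CPM (1.43 ± 0.17, not called with the trend removed).

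In the Wnt pathway 8 of 24 genes rose and 4 fell (6 and 5 with the trend removed). The receptor Fzd2 had 7.39 and 0 CPM in control and 78.5 and 78.4 CPM with EPC-EVs (log2 fold change 4.32 ± 0.82, adjusted p = 0.0046) and the secreted antagonist Sfrp2 19.9 and 16.2 CPM in control and 284 and 335 CPM with EPC-EVs (log2 fold change 4.08 ± 0.23, adjusted p = 7.1e-05). Dkk2, another antagonist, had 1.97 and 6.61 CPM in control and 0.314 and 0 CPM with EPC-EVs (log2 fold change -4.68 ± 1.42, adjusted p = 0.033), and the target gene Axin2 had a log2 fold change of -0.11 ± 0.58 and was not called. In the BMP and TGF-beta list 7 of 30 rose and 7 fell (2 and 5 with the trend removed, of which 2 and 3 were called so with and without it), each 23.3% beside 19.1% and 17.2% over all tested genes. The BMP targets Id3 (3.12 and 3.2 CPM in control and 41.6 and 43.9 CPM with EPC-EVs; log2 fold change 3.73 ± 0.34, adjusted p = 0.00031) and Id1 (3.94 and 2.4 CPM in control and 16.6 and 19.2 CPM with EPC-EVs; log2 fold change 2.46 ± 0.46, adjusted p = 0.0043) rose, while the receptors Tgfbr1 (145 and 142 CPM in control and 46.6 and 30.4 CPM with EPC-EVs; -1.92 ± 0.25) and Bmpr2 (342 and 394 CPM in control and 169 and 191 CPM with EPC-EVs; -1.05 ± 0.18) fell. Bmpr2 had a log2 fold change of -0.03 with the trend removed and was then not called.

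Of 11 hedgehog genes 5 rose and none fell. None was called higher with the trend removed and 1, Evc2, was called lower, and Kif7 moved from 1.19 to -0.18 and Gas1 from 1.09 to -0.16. The targets Gli1 (0.60 ± 0.52) and Ptch1 (-0.44 ± 0.25) were not called. Contractile and SRF target genes gave 9 rises and 1 fall among 21 (8 and 5 with the trend removed). Acta2, smooth muscle actin, rose from 381 and 371 to 2425 and 2392 CPM (log2 fold change 2.66 ± 0.18, adjusted p = 0.00011), and Tagln and Myl9, which act with it, rose by 2.45 ± 0.21 and 1.78 ± 0.23. Actg2 rose with 12.6 and 9.61 CPM in control and 73.3 and 68.4 CPM with EPC-EVs (2.64 ± 0.27) and Ankrd1 fell with 35.3 and 59.1 CPM in control and 26 and 16.7 CPM with EPC-EVs (-1.17 ± 0.35). The actin genes are near-identical in their coding parts and can share reads. In the adipogenic list 3 of 12 rose and 1 fell (1 and 0 with the trend removed), with Cebpb at 19.4 and 16.4 CPM in control and 109.9 and 108 CPM with EPC-EVs, Lipe at 10.5 and 4.81 CPM in control and 22.6 and 23.4 CPM with EPC-EVs and Fabp4 at 7.23 and 2.8 CPM in control and 0.707 and 0.154 CPM with EPC-EVs (-3.53 ± 1.1). These 3 genes were not called with the trend removed.

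The Bcl2 family and caspases gave 7 rises and 3 falls among 24 (4 and 4 with the trend removed, of which 3 and 2 were called so with and without it). Mcl1, which protects from apoptosis, fell from 396 and 542 to 140.2 and 136 CPM (log2 fold change -1.78 ± 0.21, adjusted p = 0.00066), and the death receptor Fas fell with 49.1 and 83.3 CPM in control and 8.79 and 13.8 CPM with EPC-EVs (log2 fold change -2.57 ± 0.36, adjusted p = 0.0014). Casp9 had 5.91 and 3.6 CPM in control and 29.4 and 24.1 CPM with EPC-EVs (2.46 ± 0.40) and Bok 1.31 and 0 CPM in control and 13.2 and 8.48 CPM with EPC-EVs (3.92 ± 0.95), both higher, the latter not called with the trend removed, while Bcl2 (-0.38 ± 0.31) was not called. Calls in both directions thus included genes that promote death and, among the falls, one that opposes it.

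The p53 list gave 9 falls and 3 rises among 20 tested genes, with 8 not called, a median of -0.76, and with the trend removed 13 lower and 1 higher. Mdm2, which targets p53 for breakdown, fell from 791 and 1135 to 210.3 and 190.2 CPM (log2 fold change -2.29 ± 0.22, adjusted p = 0.00036). Cdkn1a, the cell cycle inhibitor p21, fell from 546 and 699 to 236 and 155 CPM (log2 fold change -1.69 ± 0.24, adjusted p = 0.0014), and Ccng1 fell from 596 and 654 to 242 and 258 CPM (log2 fold change -1.34 ± 0.17, adjusted p = 0.00093). Polk (-2.38 ± 0.31) and Trp53inp1 (-2.21 ± 0.25) fell as well. Bbc3 (4.11 and 4 CPM in control and 23.2 and 12 CPM with EPC-EVs; 2.1 ± 0.49) and Phlda3 (60.8 and 21.2 CPM in control and 189 and 164 CPM with EPC-EVs; 2.08 ± 0.41) rose without keeping their calls when the trend was removed, and Trp53 itself was not called, as given above.

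Cell cycle genes were called in both directions. Of 39, 13 rose and 7 fell (8 and 8 with the trend removed, of which 6 and 6 were called so with and without it). Genes of DNA synthesis such as Tk1 (9.2 and 2.4 CPM in control and 55.5 and 32.5 CPM with EPC-EVs; 2.87 ± 0.55), Mcm2 (45.3 and 37.8 CPM in control and 123 and 88.6 CPM with EPC-EVs; 1.33 ± 0.24) and Cdt1 (11.2 and 10.4 CPM in control and 44.7 and 29.4 CPM with EPC-EVs; 1.76 ± 0.33, not called with the trend removed) were among the rises. Mki67, the proliferation marker, fell from 1015 and 1349.8 to 554 and 277 CPM (log2 fold change -1.53 ± 0.31, adjusted p = 0.0063), with a wide gap between the EPC-EVs libraries, and the kinetochore genes Cenpe (264 and 394 CPM in control and 77.6 and 69.5 CPM with EPC-EVs; -2.18 ± 0.24) and Cenpf (-2.05 ± 0.23) fell. Ccne2 fell with 19.2 and 17.2 CPM in control and 2.28 and 2.24 CPM with EPC-EVs (-3.02 ± 0.45), and Ccnb1 (-0.01 ± 0.36) and Ccnd1 (-0.20 ± 0.31) were not called. Autophagy and lysosome genes gave 10 rises and 5 falls among 36 (9 and 6 with the trend removed, of which 5 and 2 were called so with and without it), with the protease Ctsd at 97.2 and 42.2 CPM in control and 535 and 502 CPM with EPC-EVs (2.87 ± 0.35), the regulator Tfeb at 2.3 and 5.21 CPM in control and 17 and 21.6 CPM with EPC-EVs (2.36 ± 0.50, not called with the trend removed), Lamp2 at 676 and 797 CPM in control and 157 and 221 CPM with EPC-EVs (-1.98 ± 0.22) and Atg3 at 79.7 and 90.5 CPM in control and 45.6 and 44.2 CPM with EPC-EVs (-0.94 ± 0.21, and 0.02 with the trend removed).

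Mitochondrially encoded transcripts were also called in 1 direction. All 12 tested genes were downregulated, with a median log2 fold change of -4.76, or -4.38 when mt-Atp8, at 0 counts in both EPC-EVs libraries, is set at its bound of at least 11.6-fold lower against 3 counts over the group. With the trend removed 10 stayed called, with a median of -3.22. mt-Co1, an oxidase subunit, fell from 29281 and 38381 to 3609.9 and 5188 CPM (log2 fold change -2.96 ± 0.27, adjusted p = 0.0003). mt-Nd1 fell from 10723 and 12898 to 344 and 519 CPM (log2 fold change -4.79 ± 0.28, adjusted p = 7.8e-05), and mt-Cytb from 8376 and 7762 to 228 and 847 CPM (log2 fold change -3.92 ± 0.54, adjusted p = 0.0012), the latter with EPC-EVs libraries far apart. These genes are low in GC, with a median of 37.4%, and several overlap each other or have nuclear copies.

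Nuclear genes of the same complexes were called mostly higher. Of 38, 22 rose, 1 fell and 15 were not called, with a median of 0.75, and 16 rose and 3 fell with the trend removed. Cyc1 (8.87 and 3 CPM in control and 42 and 47.4 CPM with EPC-EVs; log2 fold change 2.87 ± 0.45, adjusted p = 0.0022) and Uqcrq (8.87 and 4.6 CPM in control and 49.9 and 45.3 CPM with EPC-EVs; log2 fold change 2.79 ± 0.36, adjusted p = 0.001) of complex III rose, as did Ndufv1 of complex I (2.12 ± 0.30) and Atp5b of the ATP synthase (1.53 ± 0.20). Uqcrb, also of complex III, fell with 95.9 and 146 CPM in control and 12.3 and 17.7 CPM with EPC-EVs (log2 fold change -3.03 ± 0.30, adjusted p = 0.00042). Tfam, which packages and transcribes mitochondrial DNA, had 22.5 and 31.6 CPM in control and 22.9 and 15.7 CPM with EPC-EVs (log2 fold change -0.51 ± 0.34, adjusted p = 0.27), and Ppargc1a, a driver of mitochondrial biogenesis, had 3.94 and 12 CPM in control and 7.38 and 6.09 CPM with EPC-EVs (log2 fold change -0.26 ± 0.61, adjusted p = 0.77). Neither was called.

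Glycolysis and hypoxia genes gave 10 falls and 3 rises among 24 tested genes, with 11 not called, and 16 lower and 0 higher with the trend removed. Car9, a carbonic anhydrase induced by hypoxia, fell from 155 and 159 to 20.3 and 10.0 CPM (log2 fold change -3.39 ± 0.33, adjusted p = 0.00038), Ankrd37 had 4.11 and 5.81 CPM in control and 0.393 and 0.0771 CPM with EPC-EVs (-4.35 ± 1.12), and Ero1l (-3.39 ± 0.22), Ndrg1 (-2.8 ± 0.36), Bnip3 (-1.83 ± 0.31) and Pdk1 (-1.64 ± 0.23) fell. Ldha (337 and 212 CPM in control and 571 and 436 CPM with EPC-EVs; 0.86 ± 0.25) and Pfkfb4 (5.59 and 4.2 CPM in control and 12.7 and 16 CPM with EPC-EVs; 1.53 ± 0.45) rose, both calls lost with the trend removed. Gapdh fell with 4203 and 2245 CPM in control and 1939 and 1754 CPM with EPC-EVs, with control libraries far apart (log2 fold change -0.82 ± 0.28, adjusted p = 0.047), and Pgk1 (-0.40 ± 0.23) and Vegfa (-0.07 ± 0.27) were not called. Of 16 clock genes 3 rose and 5 fell (2 and 5 with the trend removed). The repressor Nr1d1 fell from 224 and 339 to 84.8 and 88.7 CPM (log2 fold change -1.72 ± 0.23, adjusted p = 0.0012), Bhlhe41 fell (-1.46 ± 0.24) and the activator Arntl (-0.86 ± 0.28), while Tef (1.61 ± 0.20) and Ciart (3.61 and 0.801 CPM in control and 9.03 and 11.3 CPM with EPC-EVs; 2.15 ± 0.70, not called with the trend removed) rose.

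**Figure D5:**
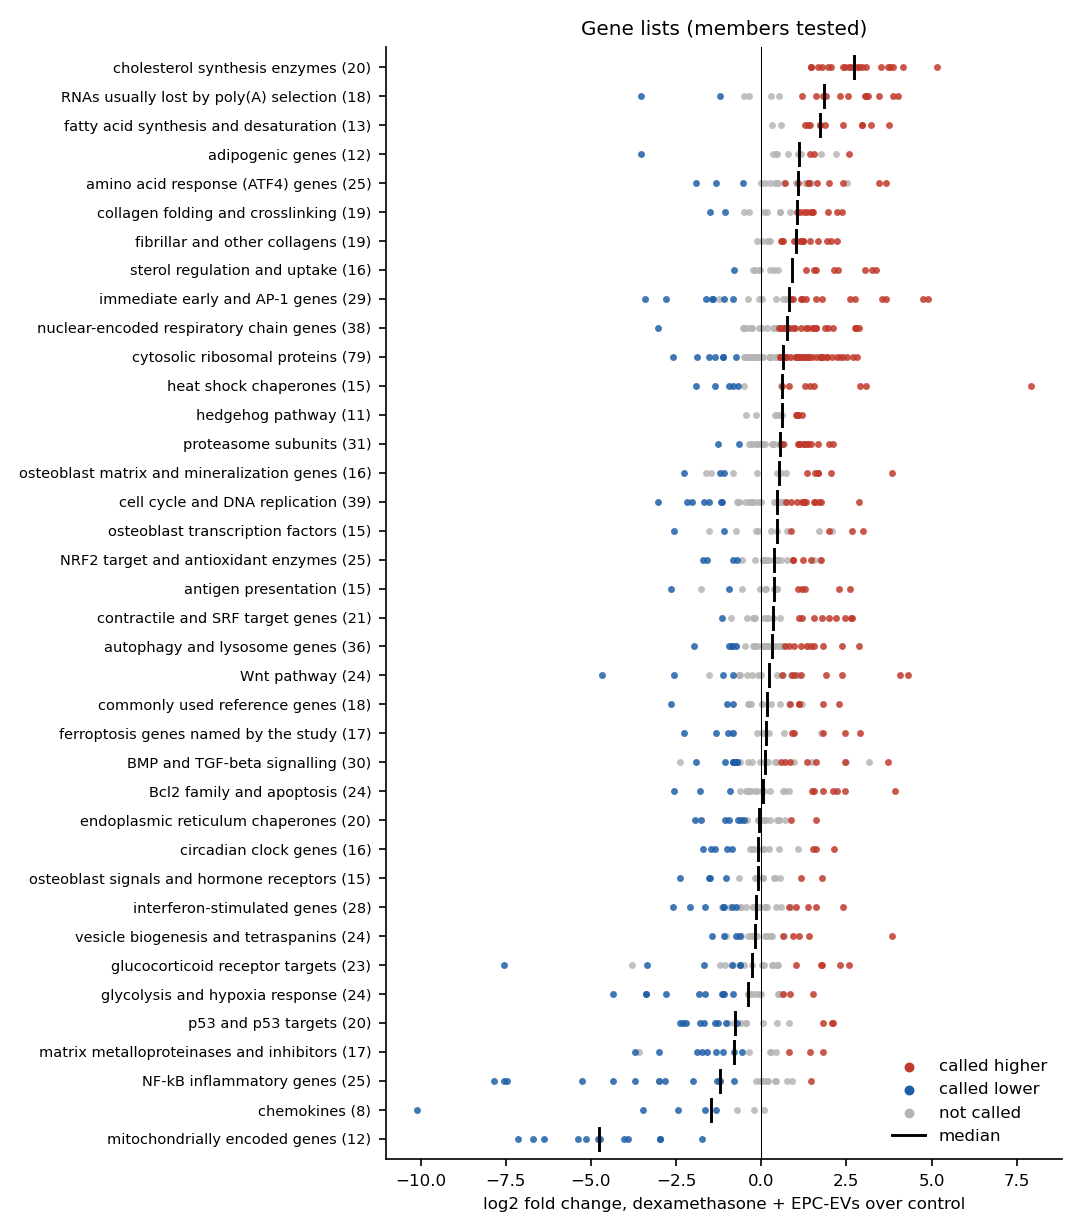
Log2 fold change, dexamethasone + EPC-EVs over control, of every tested member of the 38 gene lists (horizontal axis), with the lists ordered by their median (black bar) and the number of tested members in brackets. Red points are called higher, blue lower and grey not called. Cholesterol synthesis stands at the top with all 20 members higher, and the mitochondrially encoded genes stand at the bottom with all 12 lower.

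Markers of cell types gave the following picture. Of 9 osteoblast lineage markers, Runx2, Dlx5, Col1a1 and Col1a2 were well expressed in all 4 libraries, while Alpl, Bglap, Ibsp, Sp7 and Pth1r were at 26 counts or fewer in each control library. Within this list Runx2, Dlx5 and type I collagen were thus present, while Sp7, Alpl, Bglap and Ibsp were scarce in control. Alpl and Ibsp were scarce with EPC-EVs too. Other matrix and mineralisation genes, such as Spp1 at the levels given above, were not scarce in control. Of 16 endothelial and progenitor markers, 11 were in the table and 4 tested. None rose, and the summed level was 541 and 483 CPM in control and 406 and 327 CPM with EPC-EVs. Cdh5, which defines endothelium, was at 0 counts in all 4 libraries and Pecam1 at 5 and 2 counts in control and 1 and 21 with EPC-EVs. Cd34, also a stromal gene, made up most of the sum and fell with 414 and 377 CPM in control and 286 and 235 CPM with EPC-EVs (log2 fold change -0.62 ± 0.18, adjusted p = 0.028, not called with the trend removed).

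Markers of other cell types were present at different levels. Blood cell and macrophage markers summed to 23.5 and 19.2 CPM in control and 42.9 and 86 CPM with EPC-EVs, where Csf1r (1.97 and 0 CPM in control and 4.4 and 36.3 CPM with EPC-EVs; 4.25 ± 1.22) and Cd14 (10.3 and 7.41 CPM in control and 24 and 32.8 CPM with EPC-EVs; 1.65 ± 0.36) rose and Adgre1 and Cd3e were at 0 counts. Of 13 such markers 8 were in the table and 4 tested, of which 2 rose and 2 were not called. In 3 of the 4 both EPC-EVs libraries lay above control and in 1 below, beside 38.2% and 34.8% of all tested genes. Csf1r had 56 and 471 counts in the EPC-EVs libraries, so most of its rise lay in 1 of them. Mural cell markers summed to 806 and 642 CPM in control and 3476 and 3475 CPM with EPC-EVs, mostly Acta2 and Pdgfrb (239 and 126 CPM in control and 741 and 889.9 CPM with EPC-EVs; 2.14 ± 0.29), whereas Rgs5, the marker most particular to pericytes, fell with 28.3 and 14 CPM in control and 0.314 and 0.386 CPM with EPC-EVs (log2 fold change -5.88 ± 0.63, adjusted p = 0.00048). Of 7 mural markers tested 3 rose, 1 fell and 3 were not called (2 and 1 with the trend removed), and their median log2 fold change of 0.82 became -0.25 with the trend removed. Adipocyte markers summed to at most 9.03 CPM and skeletal muscle markers to at most 4.40 CPM in each of the 4 libraries. Chondrocyte markers summed to between 211 and 295 CPM, osteoclast markers to between 35.2 and 53.5 CPM. The Y-linked genes Ddx3y (31.2 and 44.2 CPM in control and 32.8 and 29.1 CPM with EPC-EVs), Eif2s3y (24 and 25.8 CPM in control and 14.7 and 12.8 CPM with EPC-EVs), Kdm5d (18.2 and 15.4 CPM in control and 19.8 and 15 CPM with EPC-EVs) and Uty (19.4 and 15.4 CPM in control and 9.81 and 14.5 CPM with EPC-EVs) were present and not called in either direction, and Xist was at 5 counts or fewer in each library. With the trend removed Ddx3y had a log2 fold change of 1.35 and was called. In bulk RNA, a change in the number of such cells and in RNA per cell cannot be told apart. The part of these markers in the lists above was not tested.

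Libraries given dexamethasone alone were set beside the comparison. The tests share libraries, so values are only set side by side. Dexamethasone alone against control called 7 of 12879 genes (0.0544%), 2 higher (0.0155%) and 5 lower (0.0388%), while dexamethasone + EPC-EVs against dexamethasone called 5397 of 13556 (39.8%). Cxcl5 was lower already with dexamethasone alone, at 8.69 and 9.13 CPM (log2 fold change -2.69 ± 0.29 against control, adjusted p = 0.013), and lower again with EPC-EVs (-7.45 ± 0.94 against dexamethasone, adjusted p = 0.0001). mt-Nd2 and mt-Cytb were also called lower with dexamethasone alone, at 2810.2 and 2518 CPM (-1.13 ± 0.14) and 3532 and 3599.9 CPM (-1.18 ± 0.12), and Scd2 was called higher, at 1035 and 828 CPM (1.42 ± 0.20). The other deep falls were not called with dexamethasone alone. Lcn2 had 808 and 1002 CPM with dexamethasone alone (-0.43 ± 0.15 against control, adjusted p = 0.36), Nos2 380.1 and 386 CPM (0.22 ± 0.23) and Il33 43.4 and 51.3 CPM (-0.45 ± 0.22). Tsc22d3 was not called with dexamethasone alone either, at 25.9 and 31.7 CPM (-0.09 ± 0.30).

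Lipid and ferroptosis genes are set out in the same way. Fasn had 277 and 197 CPM with dexamethasone alone, above control without a call (1.22 ± 0.25, adjusted p = 0.22) and below dexamethasone + EPC-EVs (2.52 ± 0.16 for EPC-EVs against dexamethasone, adjusted p = 9.8e-07). Of the 20 cholesterol enzymes none was called with dexamethasone alone and all 20 were higher with EPC-EVs than with dexamethasone. Gpx4 had 57.7 and 51.9 CPM (1.3 ± 0.37 against control without a call), and Hmox1, not called against control, was at 189.8 and 178 CPM with dexamethasone alone and lower with EPC-EVs (-1.04 ± 0.20, adjusted p = 0.0016). Slc7a11 was likewise at 21.6 and 18 CPM with dexamethasone alone and lower with EPC-EVs (-2.07 ± 0.48, adjusted p = 0.0052).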

How the data were processed

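RNA-seq of MC3T3-E1 Subclone 14 cells was available as a gene table with raw read counts and FPKM for 6 libraries, 2 each of control, dexamethasone and dexamethasone + EPC-EVs, grouped by their labels. Per the study's methods, the authors cleaned the reads of adapter, undetermined and poor-quality sequence, mapped them with HISAT2 set for reverse-stranded reads and counted them per gene with HTSeq. The submitters' processing notes name HTSeq 0.6.1, DESeq2 1.26.0 and build GRCm38. The deposited counts are not normalised, and the deposited FPKM values were computed by the authors per length and depth. Whether HTSeq used strand is not given in the sources used here. Poly(A) selection or ribosomal depletion is likewise not stated. A table of chromosome 1 transcripts was not used here.

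Counts were tested with edgeR 4.0.16 in R 4.3.3 (TMM normalisation, filterByExpr, robust quasi-likelihood test, Benjamini-Hochberg adjustment over all 13511 genes tested) on the 2 dexamethasone + EPC-EVs and 2 control libraries. Genes with an adjusted p under 0.05 are called. The ± after a log2 fold change is its standard error from the fit. The same test was run for the other pairs of groups. The biological coefficient of variation was 0.271. The study states that its replicates are biological, but with n = 2 per group the spread is poorly known. Counts of a group's libraries differed by more than sampling noise (chi-square per degree of freedom 16.6 for control and 20.1 for dexamethasone + EPC-EVs), which does not tell separate cultures from separate preparations of one. Total counts ranged from 5146760 to 13182014, and counting intervals are exact and 95%.

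GC content, length, coordinates and overlaps came from GENCODE vM21 (GRCm38), in which 21646 of 21686 gene IDs were found. Promoters came from RefSeq (GRCm38.p6). The 38 gene lists and 9 marker lists, as well as the comparison itself, were chosen with earlier results of these data known. No set test was run. Named genes are the 12 largest rises and 12 largest falls among called genes averaging 10 CPM or more with no overlap between groups, up to 2 called genes with the largest rise and up to 2 with the largest fall in each list, all ferroptosis and sex-chromosome genes, and further genes (regulators, textbook members of each list and examples) that were chosen after their values were seen. Of 327 named genes, 159 overlap another annotated gene. Alternatives were DESeq2 1.42.0, limma 3.58.1 on log2(FPKM + 1), other scalings and filters, a fit of all 6 libraries, a replicate block, thinning of the dexamethasone + EPC-EVs counts to the mean control total, removal of a loess trend on GC content and length, other thresholds, and each library left out. The edgeR fits (with and without the block and the trend), DESeq2 and limma were tested on simulated counts. Values of some list members are not reported here.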

Additional observations from a re-analysis of the deposited data

How the results depend on the processing

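The counts of called genes held within 1.5 times of 4916, 2587 higher and 2329 lower under most settings. With the GC content and length trend removed the higher calls fell to 1631 and the genes past the study's thresholds to 1740 from 2793. Those thresholds gave 1751 among genes averaging 10 CPM or more, 1726 with limma on log2(FPKM + 1) and 4473 with a log2 fold change beyond 1. An adjusted p under 0.01 called 2637 genes, 1361 higher and 1276 lower. Among protein-coding genes that overlap no other gene, a setting chosen after seeing the data that tests 5149 genes, 1946 were called, 990 higher and 956 lower, and 1120 passed the study's thresholds. Leaving out each library in turn gave 3375 to 6231 called genes, 1820 to 3581 higher, 1555 to 2650 lower and 2324 to 3872 past the study's thresholds. A group left with 1 library borrows its spread from the other.

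The replicate numbers did not pair the samples: the correlation of same-numbered deviations between the groups was 0.02. A replicate block called 4679 genes (2511 higher, 2168 lower). The block with the GC content and length trend removed, chosen after seeing the data, called 1573 higher and left 1579 past the study's thresholds. The number of called members of each list also varied between settings, and only its count with the trend removed is given beside the main count. The cause of these shifts was not tested.

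Of the named genes called with or without the trend, 8 changed sign when it was removed, without and with the block. Their log2 fold changes were then Atg3 0.020 and 0.018, Cd63 -0.58 and -0.58, Ddx3y 1.35 and 1.34, Gas1 -0.16 and -0.18, Igfbp6 -0.23 and -0.23, Kif7 -0.18 and -0.16, Nr3c1 0.13 and 0.13 and Ptgs2 0.22 and 0.20. Removing the trend also took the call from 42 named genes and gave one to 5. Leaving out dexamethasone + EPC-EVs library 1 or 2 took the call from 26 or 35 named genes, and leaving out control library 1 or 2 from 9 or 20.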

Other observations

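Several further gene lists were counted. Of 79 tested cytosolic ribosomal protein genes, 41 were higher and 7 lower with dexamethasone + EPC-EVs than in control (35 and 18 with the trend on GC content and length removed, of which 29 and 7 were called so with and without it). Rps14 rose with 57.5 and 36.2 CPM in control and 350.4 and 316 CPM with EPC-EVs (2.81 ± 0.25) and Rplp1 with 55.5 and 27 CPM in control and 273 and 269 CPM with EPC-EVs (2.69 ± 0.31), while Rpl21 fell from 1809 and 1849 to 305 and 311 CPM (-2.59 ± 0.17) and Rpl36a (-1.89 ± 0.18). These genes have many processed copies that can share reads. Of 31 proteasome subunits 13 rose and 2 fell (15 and 3 with the trend removed, of which 10 and 2 were called so with and without it), with Psmb5 at 8.87 and 4 CPM in control and 33.4 and 24 CPM with EPC-EVs (2.12 ± 0.44), Psmb4 at 22 and 16.6 CPM in control and 85.4 and 71.2 CPM with EPC-EVs (2.0 ± 0.26), Psma4 at 113 and 164 CPM in control and 66.1 and 49.8 CPM with EPC-EVs (-1.27 ± 0.26) and Psmc1 at 103 and 95.3 CPM in control and 64.4 and 63.6 CPM with EPC-EVs (-0.65 ± 0.20). Of 24 vesicle and tetraspanin genes 5 rose and 4 fell (2 and 7 with the trend removed, of which 1 and 3 were called so with and without it), or 20.8% and 16.7%, near the 19.1% and 17.2% of all tested genes. Tsg101, of the sorting complex that forms vesicles, fell with 98.2 and 96.5 CPM in control and 32.7 and 39.2 CPM with EPC-EVs (-1.46 ± 0.22), and Stam (-1.08 ± 0.20) fell, while Smpd2 rose by 1.39 ± 0.37. Stam and Smpd2 were not called with the trend removed. The vesicle markers Cd9 (-0.38 ± 0.17) and Cd81 (0.12 ± 0.20) were not called, and Cd63 rose by 0.64 ± 0.20 but had -0.58 with the trend removed.

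Of 18 genes often used as references, 5 were higher and 3 lower (3 and 3 with the trend removed). Actb rose from 2125 and 1500.4 to 4224 and 3653 CPM (1.1 ± 0.21), Ppia by 2.29 ± 0.40 and Rplp0 by 1.81 ± 0.22, B2m fell as given above, Tbp (-1.0 ± 0.22, not called with the trend removed) fell and Hprt had 34.2 and 31 CPM in control and 25.2 and 26.6 CPM with EPC-EVs (log2 fold change -0.35 ± 0.26, adjusted p = 0.33) without a call. Of 18 genes in a list drawn up for histone, noncoding and other RNAs that poly(A) selection can thin, 12 rose and 2 fell (10 and 3 with the trend removed). The replication-dependent histone gene Hist1h3c had 5.42 and 3.6 CPM in control and 92.3 and 57.2 CPM with EPC-EVs (4.01 ± 0.37) and Gm26917 had 6095 and 2594 CPM in control and 59376 and 68055 CPM with EPC-EVs (3.86 ± 0.40). Both falls were in genes with polyadenylated transcripts, Lars2, which encodes a mitochondrial tRNA synthetase, with 96.9 and 228 CPM in control and 14.7 and 13.8 CPM with EPC-EVs (-3.53 ± 0.40), and the spliced RNA gene Snhg1 (-1.2 ± 0.39, not called with the trend removed). The part of library preparation in these values was not tested.

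A few well expressed genes outside the lists were chosen after their values were seen. Txnip, which restrains glucose uptake and is induced by glucose, had 1119 and 2032 CPM in control and 77.2 and 40.0 CPM with EPC-EVs (log2 fold change -4.77 ± 0.41, adjusted p = 0.00025), and its relative Arrdc4 had 109.9 and 132 CPM in control and 9.97 and 7.25 CPM with EPC-EVs (log2 fold change -3.83 ± 0.27, adjusted p = 0.00013). The matrix proteins periostin (Postn; 1163 and 2196 CPM in control and 11383 and 13677 CPM with EPC-EVs; log2 fold change 2.88 ± 0.31, adjusted p = 0.00054) and tenascin-N (Tnn; 9.53 and 5.41 CPM in control and 63.5 and 154 CPM with EPC-EVs; log2 fold change 3.83 ± 0.48, adjusted p = 0.00087) rose, as did Tmem119 (16.3 and 6.21 CPM in control and 147 and 137 CPM with EPC-EVs; log2 fold change 3.62 ± 0.38, adjusted p = 0.00048), while the proteoglycan decorin (Dcn) fell from 572 and 632 to 92.4 and 44.7 CPM (log2 fold change -3.16 ± 0.32, adjusted p = 0.00044).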
